A study of Homo sapiens with 12 samples.

Results

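Batch 1 and batch 2 of wild-type (WT) eHAP1 cells were compared with each other. The members were 73 cells of batch 1 and 75 cells of batch 2, taken by the batch number at the start of each cell's name. These were 148 of the 403 wells in the 12 samples of the series. The eHAP1 line is a haploid human line that descends, through HAP1, from the chronic myeloid leukaemia line KBM-7 and grows attached to the dish. It was made fully haploid by removing a disomic fragment of HAP1, which WT and SCC4 KO cells therefore both lack, and the labels gave no treatment. Haploid cells were enriched by size, kept haploid with 10-Deacetylbaccatin-III, detached with trypsin and sorted as live G1 cells by DNA content. Each batch was 1 pooled LAST-seq library. LAST-seq attaches a T7 promoter to the poly-A end of each RNA, amplifies the RNA linearly by transcription and counts molecules by unique molecular identifiers (UMIs). SCC4 KO eHAP1 cells, which lack the cohesin loader subunit SCC4, were also given in 2 batches, with 77 cells in batch 1 and 76 cells in batch 2. The labels did not say whether a batch number means the same culture, sort or day in both genotypes, nor what separated the batches.

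Cells of a dividing line pass through programmes that can shift between cultures. Immediate-early genes and AP-1 respond within minutes to serum, handling and dissociation. Heat shock factors, ATF4, p53, NRF2 and HIF each drive a set of stress genes, and MYC and mTOR set ribosome production and growth. A G1 gate should leave the genes of replication and mitosis low and even between samples, and mitochondrially encoded RNA is a common measure of damaged cells.

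With 1 library per batch there was no replicate of a batch, so no test between batches could be made and cells were not counted as replicates. Levels are the mean over cells of UMIs scaled to 100000 UMIs per cell. A gene was kept where the cells of either batch averaged 1 UMI or more, and ratios of batch 1 over batch 2 were taken with 0.5 added to both levels. Intervals are exact at the 95% level, and they cover counting error only and not the spread between batches.

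Batch 2 cells held more UMIs at the median. Batch 1 cells held between 46288 and 347087 UMIs with a median of 89978, and batch 2 cells held between 18022 and 926415 with a median of 143882. A total of 70 of 78 cell barcodes were used in both batches, and the relation of their total UMIs between batches was given by both measures (Pearson's r = -0.02, Spearman's rho = 0.26 over 70 barcodes, as a description). After each cell was thinned to 50000 UMIs, which left out 1 cell of batch 1 and 2 cells of batch 2, a median of 7593 genes per cell was detected in batch 1 and 7290 in batch 2, against 9318 and 10168 without thinning. BCR and ABL1, the parent genes of the BCR-ABL1 fusion of leukaemia, were detected in 31 and 16 of 73 batch 1 cells and in 43 and 45 of 75 batch 2 cells. None of the 16 haematopoietic markers listed reached a mean of 1 UMI.

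The values of 0 and 1 UMI need to be read apart from the larger ones. The study's methods name ComBat-seq, which equalizes the distribution of each gene between batches, as a step before the bursting analysis. The labels do not say whether the deposited tables were made before or after it, and the values bear on this. Among genes with a mean of 4 to 6 UMIs, 9.09% of batch 1 values were 1, only 7.995% were 2 and 15.8% were 3. In batch 2 these shares were 11.6%, 5.15% and 16.0%. HEK293T, a human embryonic kidney line, was profiled by the same assay in 2 tables of 10 single cells, one with the A60 and one with the ERCC spike-in mix. These cells had no such dip, with 5.88%, 10.9% and 14.1% in the cells with the A60 mix. Running ComBat-seq on the genes of both tables, without spike-ins, made one, with 8.50%, 4.81% and 13.8% in the same cells. In that run all 75750 values of 0 stayed 0, all 45485 values of 1 stayed 1, and none of the 157485 larger values fell below 1. The share of cells with a UMI of a gene was thus left as it was in that run, and it was used as a second readout beside the level. This readout was added after the values were seen.

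**Figure D1:**
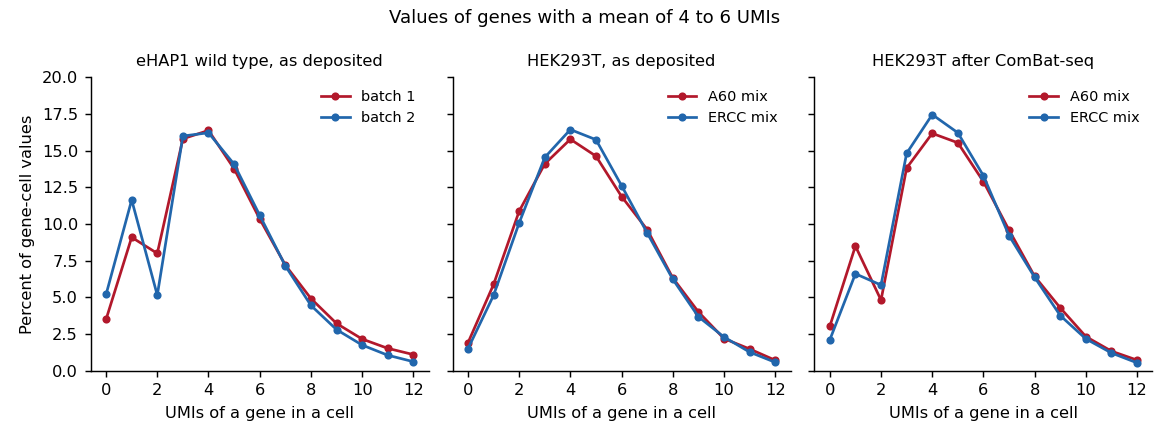
Percent of gene-cell values at each UMI number from 0 to 12, for genes with a mean of 4 to 6 UMIs. Lines stand for the batches of wild-type eHAP1 cells as deposited and for HEK293T cells with the A60 or the ERCC spike-in mix before and after ComBat-seq. The share at 2 UMIs dips in the eHAP1 cells (7.995% and 5.15%) and in HEK293T cells after ComBat-seq, and not in HEK293T cells as deposited.

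Abundant genes had nearly the same deposited level in both batches. The 757 genes with a mean of 20 to 50 UMIs in the higher batch had a median absolute log2 ratio of 0.018, where the median counting SD was 0.051, and 92.6% of them lay within 1 counting SD of equality. For the 409 genes with a mean of 50 UMIs or more the median was 0.024 against a counting SD of 0.029, and 57.0% lay within 1 counting SD. This share is lower than counting error alone would give, and that of the 757 genes is higher. For the 851 HEK293T genes with a mean of 20 to 50 UMIs, the median absolute log2 ratio was 0.25 between the tables as deposited. It was 0.018 after ComBat-seq was run between these tables, which had different spike-in mixes. The 10 genes with the most UMIs were mitochondrially encoded or their nuclear pseudogene copies, whose reads cannot be told apart with certainty. MT-CO3, a subunit of cytochrome c oxidase, ranged from 4302 to 5509 UMIs per 100000 over batch 1 cells (median 4823) and from 3718 to 5693 over batch 2 cells (median 4963). Its log2 ratio was -0.03, and the cells of both batches overlapped.

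A total of 9935 genes were kept, with a median log2 ratio of 0.01. Past 2-fold were 214 of them, or 2.15%, with 111 (1.12%) higher in batch 1 and 103 (1.04%) higher in batch 2. Nearly all were rare RNAs. A mean under 2 UMIs even in the higher batch was found for 170 of the 214, or 79.4%, and only 19 had a mean of at least 1 UMI in both batches. Of all 9935 kept genes, 2449 had a mean under 2 UMIs in the higher batch, and 6.94% of these were past 2-fold. ComBat-seq left values of 0 and 1 in place in the HEK293T run and brought abundant genes closer. The part of such an adjustment in the low abundance of the 214 genes was not tested. Just inside the threshold, SCN11A had levels of 1.11 and 0.30 in batches 1 and 2 (log2 ratio 1.0). Just outside it, FBN1 had levels of 1.26 and 0.38 (log2 ratio 0.998). Long noncoding RNAs made up 46 of the 214, or 21.5%, against 4.01% of all kept genes, and protein-coding genes 140, or 65.4% against 86.4%. Within classes, 11.6% of 398 long noncoding RNAs and 1.63% of 8584 protein-coding genes were past 2-fold. The part of abundance in this share was not tested.

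**Figure D2:**
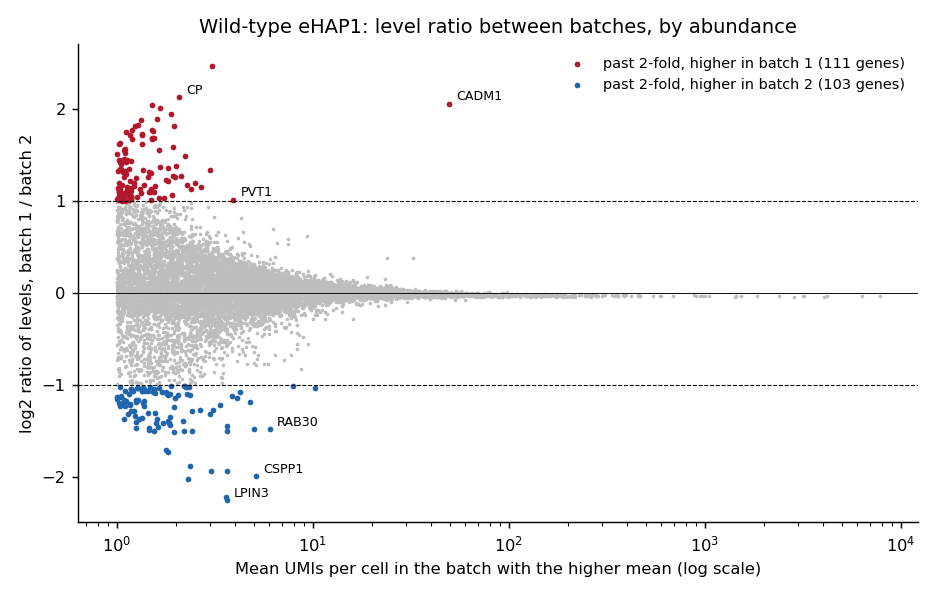
Log2 ratio of levels in batch 1 over batch 2 against the mean UMIs per cell in the higher batch (log scale) for 9935 kept genes of wild-type eHAP1 cells. Coloured points are the 111 and 103 genes past 2-fold (dashed lines), of which 170 sit below 2 UMIs. CADM1 stands apart at a log2 ratio of 2.06, with most of its UMIs in 1 cell.

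The leading genes higher in batch 1 were found in most of its cells and in few cells of batch 2. CP encodes ceruloplasmin, the copper-carrying ferroxidase of plasma. Its UMIs ranged from 1 to 8 over batch 1 cells (median 2) and from 0 to 10 over batch 2 cells (median 0). Each batch 1 cell had at least 1 UMI, against 8 of 75 batch 2 cells, and 1 of those held 10 UMIs, above the highest batch 1 cell. The level ratio was 4.38-fold, and the ratio of summed UMIs per total was 14.9 (9.02 to 26.3). The former is smaller because 0.5 was added to levels of 2.14 and 0.10.

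BMP5, a bone morphogenetic protein ligand, was present in 72 of 73 batch 1 cells (98.6%, 92.6 to 99.97%) and in 2 of 75 batch 2 cells (2.67%, 0.32 to 9.30%). Its level was 3.69-fold higher in batch 1. GLIS3, a zinc finger transcription factor of pancreas and kidney, was present in all 73 batch 1 cells and in 3 of 75 batch 2 cells. The level ratio was 3.52-fold. DIO2, the deiodinase that activates thyroid hormone, was found in 66 and 8 cells, and its ratio of summed UMIs was 23.2 (11.3 to 55.0). One batch 1 cell held 33 UMIs of DIO2, where the median cell held 1. GUCY1A1, a subunit of soluble guanylate cyclase, was found in 65 and 4 cells. NOCT, a circadian phosphatase of nicotinamide cofactors, was found in 64 and 10 cells, with a level ratio of 3.30-fold. The median cell held 1 UMI of each of these 5 genes in batch 1 and 0 in batch 2.

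The largest ratio of all belonged to ENSG00000254553, which has no symbol, with a log2 ratio of 2.48 and 73 and 7 cells. The remaining members of the leading 12 with a symbol were PGBD4, NLGN4X, EEIG2, DLGAP1-AS3, TEDC2-AS1 and MMP20-AS1, with log2 ratios between 1.75 and 2.02. PGBD4, a gene derived from a transposase, was found in 73 and 16 cells. NLGN4X, a synaptic adhesion protein, was found in 72 and 7 cells. The other 3 names at the end of that list are antisense transcripts. Without knowledge of strand in the counting, their reads cannot be separated from those of the genes they overlap.

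The leading genes higher in batch 2 were found in nearly all of its cells. LPIN3, a phosphatidate phosphatase of lipid synthesis, ranged from 0 to 1 UMI over batch 1 cells (median 0) and from 1 to 9 over batch 2 cells (median 3), so that the batches met only at 1 UMI. It was found in 11 of 73 cells (15.1%, 7.77 to 25.4%) and in all 75 cells of batch 2. The level was 4.79-fold higher in batch 2. SFXN2, a mitochondrial carrier, was found in 9 and 75 cells, with a level ratio of 3.83-fold in favour of batch 2. AFAP1L1, an actin-associated adaptor, was found in 7 and 75 cells. KCNC1, a voltage-gated potassium channel, was found in 8 and 73 cells. CSPP1, a centrosome and spindle protein, was found in 18 and 75 cells, and GKAP1, an anchor of cGMP-dependent kinase, in 21 and 74.

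ALDH1L2, a mitochondrial formyltetrahydrofolate dehydrogenase and an ATF4 target, was found in 2 of 73 batch 1 cells and in 71 of 75 batch 2 cells. Its UMIs summed to 2 and 110, a ratio of 32.95 in favour of batch 2 (8.91 to 276). In 57 of the 75 batch 2 cells it had exactly 1 UMI. RAB30, a small GTPase of the Golgi, was at 0 in 44 batch 1 cells and at 1 UMI in 21, and 8 others held 5 or more, while no batch 2 cell was at 0 (median 5). NIBAN1, a stress-responsive phosphoprotein that lay just after the leading 12, was found in 34 and 75 cells. The rest of the 12 were LINC01322, ATP5MC1P6, LINC02019 and TEX41, of which LINC01322 had 179 of its 271 batch 2 UMIs in 1 cell. It was still found in 64 cells of batch 2 and 5 of batch 1.

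**Figure D3:**
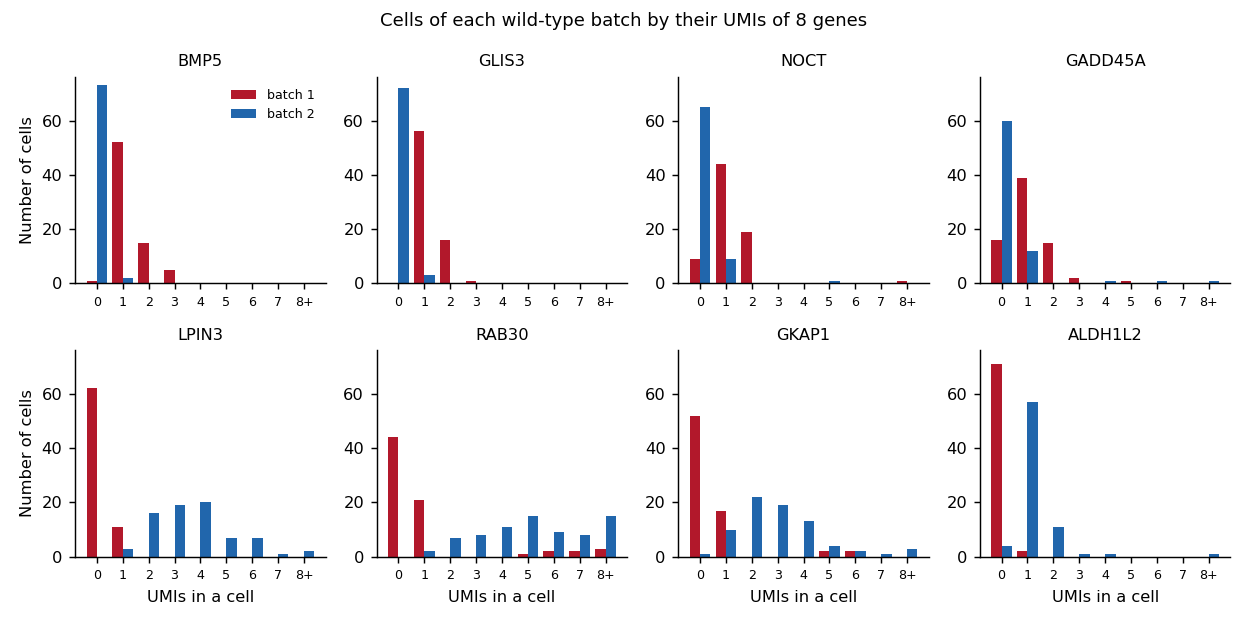
Number of cells (vertical axis) by UMIs of a gene in the cell (horizontal axis, 8 or more pooled), for 4 genes higher in batch 1 and 4 higher in batch 2 of wild-type eHAP1. BMP5 was at 1 UMI in 52 of 73 batch 1 cells and at 0 in 73 of 75 batch 2 cells, and LPIN3 was at 0 in 62 batch 1 cells and in no batch 2 cell.

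CADM1, an adhesion molecule, was past 2-fold in the mean (log2 ratio 2.06) and left out of the named genes because the trimmed mean was not. A single batch 1 cell held 3171 of its 3631 UMIs. The median cell held 6 UMIs in batch 1 and 11 in batch 2, and the batch 1 cell was the higher one in 41.7% of cell pairs.

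An extreme form was examined in the genes with a UMI in at least 90% of cells of one batch and at most 10% of the other. There were 27 of them, 0.272% of kept genes, with 11 present in batch 1 and 16 in batch 2. All 27 were past 2-fold in level. In the deposited values, most cells of the batch where they were present held the same low number. A median of 75.3% of batch 1 cells had exactly 1 UMI of a gene of the former set, and 66.7% of batch 2 cells of a gene of the latter. The variance over cells was below the mean for 15 of 27, with a median ratio of 0.75, where Poisson counting without a choice of genes gives 1. These genes were chosen for few cells at 0, which at a low mean by itself leaves many cells at 1 UMI and lowers the variance. The Poisson ratio is therefore no reference for them, and how much of these values follows from the choice was not tested. In the HEK293T cells with the A60 mix, the share of values at 1 UMI was 5.88% before ComBat-seq and 8.50% after it. These shares are for genes in the mean range used above for the UMI shares. How many larger values became 1 in that run was not counted. The part of such an adjustment in the values of 1 and the low variance of the 27 genes was not tested. Besides those named above, the protein-coding members with a symbol, chosen after their values were seen, were PIGR, the transporter of secretory antibody (69 and 5 cells), PRAC2 (66 and 2), COL9A2, a cartilage collagen (5 and 73), MEP1B, a brush border protease (1 and 73), BICDL2 (1 and 70), FRMD3 (3 and 68), RBM43 (2 and 68) and NALF1 (6 and 70). RHAG, the Rh-associated glycoprotein of red cells, fell below the minimum mean and was singled out after its values were seen. It was found in 54 of 73 and in 1 of 75 cells.

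The 120 bases before the annotated start of 3 of these genes, from RefSeq on GRCh38.p14 and read along the gene, are shown. The deposited UMIs of GLIS3 and BMP5 were near constant in one batch and near absent from the other, and RAB30 was higher in batch 2. Capitals mark a match on either strand to TATAAA (the TATA box), CCAAT (the element bound by NF-Y), GGGCGG (the GC box), TGACGTCA (the cAMP response element), TGANTCA (the AP-1 element) or CACGTG (the E-box). A match is one of letters at any distance from the start, and binding was not tested. The sequences of NOCT and FOSL2 held no match and that of MYCN held GGGCGG, and these are not printed. The RefSeq starts of GLIS3 and RAB30 lie inside the longer GENCODE genes. GLIS3 lies on the minus strand at chr9:4298497-4298616, BMP5 on the minus strand at chr6:55875591-55875710 and RAB30 on the minus strand at chr11:83071898-83072017.
GLIS3: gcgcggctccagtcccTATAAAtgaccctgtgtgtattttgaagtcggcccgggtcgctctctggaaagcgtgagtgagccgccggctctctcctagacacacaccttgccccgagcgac
BMP5: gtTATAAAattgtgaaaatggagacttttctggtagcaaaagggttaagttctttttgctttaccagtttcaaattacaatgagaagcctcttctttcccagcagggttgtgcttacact
RAB30: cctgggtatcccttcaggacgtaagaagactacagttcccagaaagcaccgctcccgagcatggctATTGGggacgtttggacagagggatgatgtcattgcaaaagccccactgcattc
TATAAA stood within 250 bases before the start of 11.1% of 27305 promoters and of 4.69% of the 4713 promoters of genes whose detection could be compared. It stood in 4.66% of 472 promoters of genes detected more in batch 1 and in 5.53% of 651 of genes detected more in batch 2, by the measure given next. CACGTG stood in 8.05% and 9.68% of them, against 8.55% of the 4713. CCAAT stood in 34.5% and 31.5%, GGGCGG in 64.2% and 64.8%, and both TGACGTCA and TGANTCA in 2.97% and 2.76%. These shares are descriptions and were not tested.

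Detection was compared by the negative natural logarithm of the share of cells at 0, which for random sampling is the mean number of molecules. The log2 ratio of batch 1 over batch 2 was centred on its median over the 7635 genes at 0 in 10 to 90% of the cells of both batches. The median before centring was -0.20. By this readout 1814 genes, or 23.8%, were past 2-fold, 824 (10.8%) detected more in batch 1 and 990 (13%) in batch 2. The SD over genes was 0.91 and the median counting SD 0.36. After cells were thinned, 1040 of the 1814 genes could still be compared, 1036 lay on the same side and 641 were still past 2-fold. List members detected past 2-fold are named after their values were seen.

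**Figure D4:**
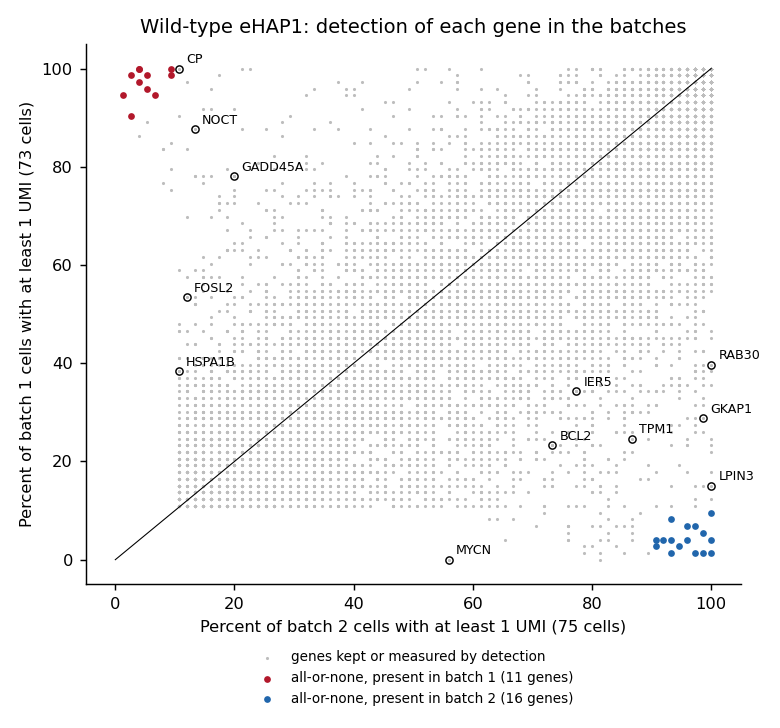
Percent of cells with at least 1 UMI of a gene in batch 1 (vertical) and in batch 2 (horizontal) of wild-type eHAP1. Points are genes, filled colours the 11 and 16 genes found in at least 90% of cells of one batch and at most 10% of the other, and open circles genes named in the text, such as GADD45A at 78.1% and 20%.

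List medians of stress, growth, respiration and cell cycle genes lay near equality in the deposited values, and single members stood apart. In the ComBat-seq run on HEK293T cells, abundant genes moved close to equality between the tables. Medians near 0 therefore do not show that the batches were alike before any such adjustment. Of 1139 genes on 38 lists, 904 were kept and 5 were past 2-fold in level, or 0.553% against 2.15% of all genes. They were GADD45A and PVT1, higher in batch 1, and ALDH1L2, MYCN and TPM1, higher in batch 2. By detection 48 of the 203 members that could be compared were past 2-fold, or 23.6%, near the 23.8% of all genes. Of these 23 were higher in batch 1 and 25 in batch 2. List medians of level lay between -0.13 (HEK293T markers) and 0.12 (hypoxia targets) among lists with more than 1 kept member.

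**Figure D5:**
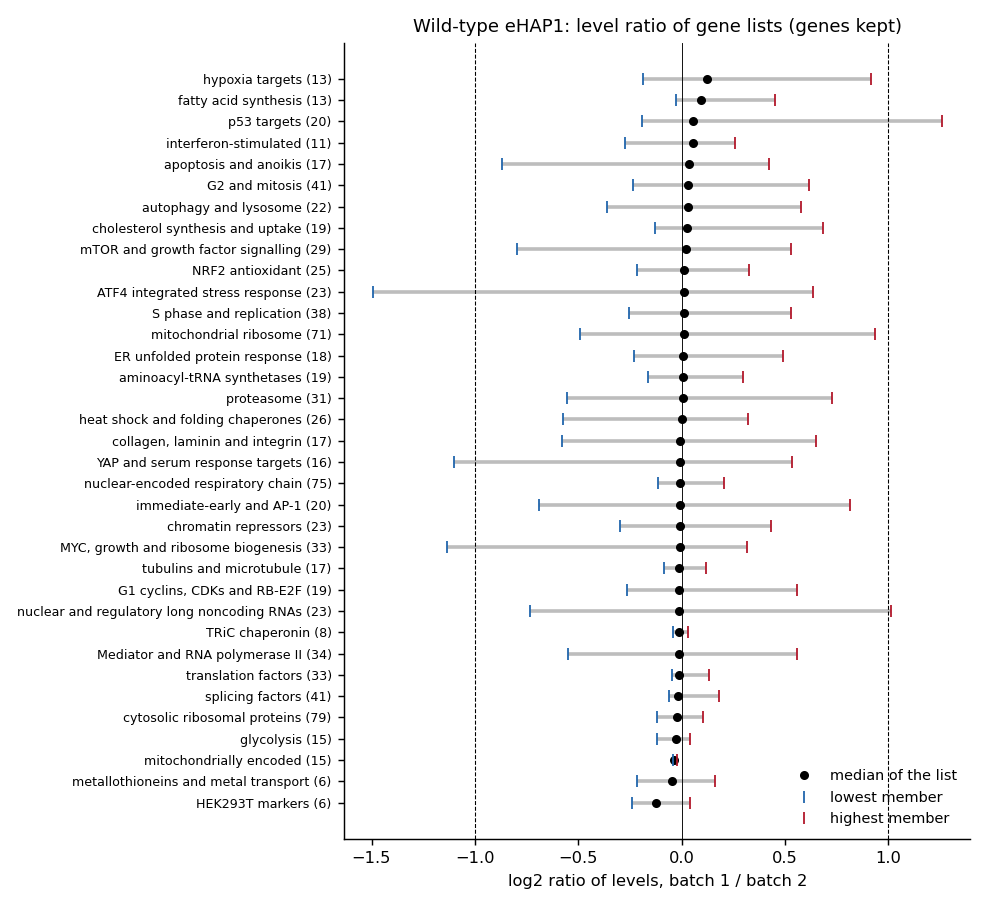
Log2 ratio of levels in batch 1 over batch 2 of wild-type eHAP1 for gene lists with more than 1 kept member (number kept in parentheses). Points are list medians, grey bars run from the lowest to the highest member and dashed lines mark 2-fold. All medians lie near 0, between -0.13 and 0.12, and single members such as ALDH1L2 at -1.49 and GADD45A at 1.26 pass 2-fold.

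Immediate-early and AP-1 genes had 20 kept members, none past 2-fold in level, and a median log2 ratio of -0.01. By detection 7 of 14 were past 2-fold, in both directions, or 50% against 23.8% of all genes. With so few members no result about the list is read from this share. FOSL2, a FOS-family partner of JUN, was found in 39 of 73 batch 1 cells and 9 of 75 batch 2 cells. DUSP5, a phosphatase of ERK, was found in 26 and 9 cells, KLF2 in 46 and 27, and PPP1R15A, which reverses the phosphorylation of eIF2 alpha, in 65 and 53. Lower in batch 1 were KLF4 with 19 and 48 cells, IER5 with 25 and 58, and the antiproliferative BTG2 with 33 and 60. The most abundant members, KLF6 and JUND, were at 15.0 and 15.7 and at 12.2 and 12.3 UMIs per 100000.

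Heat shock genes and folding chaperones had near equal deposited levels, with 26 kept, a median of 0.002 and none past 2-fold. HSP90AA1, the inducible cytosolic HSP90, ranged from 196 to 298 UMIs per 100000 over batch 1 cells (median 253) and from 194 to 333 over batch 2 cells (median 256). The cells overlapped almost entirely. HSPA1A had levels of 20.8 and 20.4. HSPA1B was found in 28 and 8 cells. It is nearly identical to HSPA1A in sequence, so the division of reads between this pair is uncertain.

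Among 23 kept members of the ATF4 integrated stress response, only ALDH1L2 was past 2-fold, and the median was 0.01. By detection 1 of 8 members was past 2-fold in each direction, or 25% in all against 23.8% of all genes. CEBPB, the one higher in batch 1, was found in 55 and 40 cells. The ER unfolded protein response had no member past 2-fold by level (18 kept) or by detection (6 compared), with HSP90B1 at 35.6 and 36.1. The p53 targets had 20 kept members and a median of 0.05. By detection 3 of 15 members were past 2-fold, or 20% against 23.8% of all genes, 2 of them higher in batch 1. GADD45A, a growth arrest gene induced by DNA damage, ranged from 0 to 5 UMIs over batch 1 cells (median 1) and from 0 to 11 over batch 2 cells (median 0). It was found in 57 of 73 cells (78.1%, 66.9 to 86.9%) and 15 of 75 (20%, 11.7 to 30.8%). Its level ratio was 2.39-fold and its ratio of summed UMIs 4.05 (2.67 to 6.27). Its relative GADD45B was found in 45 and 31 cells, while ZMAT3, another p53 target, was found in 41 and 66.

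NRF2 antioxidant genes had 25 kept members with a median of 0.01. By detection 2 of 5 members were past 2-fold, or 40% against 23.8% of all genes, and both were higher in batch 1. They were SRXN1, sulfiredoxin, in 34 and 14 cells, and HMOX1, haem oxygenase, in 46 and 31. SOD1, an abundant member, was at 63.9 and 64.8. Hypoxia targets had a median of 0.12 over 13 kept genes, with none past 2-fold. With summed UMIs this median was 0.065, and with TMM, which moved the median of all genes to -0.06, it was -0.003. By detection 2 of 10 members were past 2-fold, both higher in batch 1, or 20% against 23.8% of all genes. These were KDM3A, a histone demethylase, in 55 and 32 cells and P4HA1, a collagen prolyl hydroxylase, in 33 and 18. BNIP3 was at 13.7 and 13.9. Metallothioneins and metal transporters had 6 kept members and a median of -0.05.

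Growth genes had medians near 0. The list of MYC, growth and ribosome biogenesis kept 33 members with a median of -0.01 and a summed level of 0.582% ± 0.033 of UMIs in batch 1 and 0.586% ± 0.027 in batch 2 (SD over 73 and 75 cells of 1 library each). MYC itself was found in 3 and 4 cells. MYCN, its neural relative, was found in 0 of 73 batch 1 cells, which allows a share of cells with a UMI of up to 4.11% by the limit of 3 cells (4.93% by the exact interval), and in 42 of 75 batch 2 cells. Its UMIs summed to 0 and 79, at least 15.8-fold higher in batch 2 against a floor of 3 UMIs over the batch, and the exact interval of that ratio starts at 12.5. With MYCN at that bound the list median stayed -0.01. Among 29 kept genes of mTOR and growth factor signalling none was past 2-fold by level. By detection 1 of 10 members was, or 10% against 23.8% of all genes. This was RPTOR, the mTORC1 scaffold, found in 42 and 66 cells. Cytosolic ribosomal proteins (79 kept, median -0.02) took 9.12% ± 0.19 and 9.28% ± 0.18 of UMIs. Translation factors, aminoacyl-tRNA synthetases and the proteasome had medians of -0.01, 0.006 and 0.005.

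Serum response and YAP targets kept 16 members with a median of -0.01. TPM1, a tropomyosin of actin filaments, was found in 18 and 65 cells and was 2.14-fold higher in batch 2. CCN2, a YAP target that responds to attachment, was found in 12 and 38 cells. By detection these 2 of 10 members were past 2-fold, or 20% against 23.8% of all genes. Of 16 collagen, laminin and integrin genes compared by detection, 3 were past 2-fold, or 18.75% against 23.8% of all genes. These were integrin subunits and went both ways, with ITGAV in 61 and 46 cells, ITGA2 in 28 and 16 and ITGA5 in 31 and 60. Cholesterol synthesis and uptake had a median of 0.02 (19 kept). By detection 1 of 8 members was past 2-fold in each direction, or 25% in all against 23.8% of all genes. STARD4, a sterol carrier and the one higher in batch 2, was found in 8 and 38 cells. Fatty acid synthesis had a median of 0.09 and glycolysis -0.03.

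Mitochondrial measures differed little in the deposited values. Mitochondrially encoded genes, of which 22 were kept, took 20.8% ± 0.48 of UMIs in batch 1 and 21.3% ± 0.60 in batch 2 (SD over cells). The cells ranged from 19.6 to 22.3% and from 18.5 to 23.2%. The 15 protein and ribosomal RNA genes had a median log2 ratio of -0.03, with the lowest at -0.04 and the highest at -0.02. Of 75 nuclear-encoded genes of the respiratory chain none was past 2-fold in level, and their sum was 2.40% ± 0.06 and 2.43% ± 0.07. The mitochondrial ribosome kept 71 members with a median of 0.009. By detection 3 of 11 were past 2-fold, or 27.3%, near the 23.8% of all genes. These were MRPL44 (24 and 51 cells), MRPS11 (21 and 49) and MRPL46 (30 and 59), each higher in batch 2.

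Cell cycle genes had medians near 0. S phase and replication genes (38 kept, median 0.01) summed to 0.400% ± 0.022 and 0.399% ± 0.021, and G2 and mitosis genes (41 kept, median 0.03) to 0.341% ± 0.027 and 0.336% ± 0.026. None was past 2-fold by level. Detection could be compared for only 4 of the S phase and 3 of the G2 and mitosis genes. None of these was past 2-fold, and they are too few to read a result from. MCM7, a replicative helicase subunit, was at 54.3 and 56.0, and PTTG1, securin, at 27.0 and 27.6. Cells of both batches held RNA of replication and mitosis after the G1 gate. The G1 cyclin, CDK and RB-E2F genes (19 kept) had a median of -0.01. By detection 1 of 7 members was past 2-fold, or 14.3% against 23.8% of all genes. This was RBL2, an RB relative, found in 23 and 14 cells. Replication-dependent histones had 1 kept member, H4C3. H4C8 was found in 51 and 14 cells and H2AC6 in 9 and 46.

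In the remaining lists, splicing factors, tubulins, Mediator and RNA polymerase II, chromatin repressors, TRiC, apoptosis, autophagy, interferon and matrix genes had medians between -0.02 and 0.05 and no member past 2-fold in level. By detection 2 of 8 apoptosis genes were past 2-fold, 1 in each direction, or 25% against 23.8% of all genes. These were BCL2 in 17 and 55 cells and BCL2L11, its antagonist BIM, in 41 and 23. Among regulatory long noncoding RNAs, PVT1 had levels of 3.94 and 1.70 (2.02-fold) and was found in 73 and 42 cells. By detection 2 of 6 members were past 2-fold in each direction, or 66.7% in all against 23.8% of all genes. They were SNHG29 in 39 and 26 cells, KCNQ1OT1 in 61 and 48, FTX in 26 and 66 and JPX in 10 and 23. IFIT1 was found in 9 and 25 cells and turned on thinning, to 11.1% and 4.11%, so no order is read from it. Of the other list members past 2-fold by detection, the 23 higher in batch 1 and 24 higher in batch 2 lay on the same side after thinning.

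Transcript length and GC content were set beside the ratio. Transcripts were matched for 99.8% of kept genes. The median GC content was 46.8% for genes past 2-fold higher in batch 1, 45.3% for those higher in batch 2 and 46.9% for all kept genes. Across genes, Spearman's rho of the detection ratio was 0.05 with GC and -0.07 with length, given as a description since genes share their libraries. Chromosome medians of the level ratio lay between -0.003 and 0.031.

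The batches of SCC4 KO cells, which the WT contrast did not use, gave values for the same genes. Directions were matched by batch number, which the labels do not give as shared between genotypes. In them 10093 genes were kept and 132, or 1.31%, were past 2-fold, with 63 (0.624%) higher in batch 1 and 69 (0.684%) in batch 2. Of the 111 WT genes higher in batch 1, 37 were kept in SCC4 KO cells. None of the 37 was past 2-fold in that direction and 3 were in the opposite one. Of the 103 higher in batch 2, 31 were kept, 2 were past 2-fold in the same direction and 2 in the opposite one. Across 9211 genes kept in both genotypes, Pearson's r of the log2 ratios was -0.004 and Spearman's rho 0.003. Detection gave r = 0.06 and rho = 0.06 over 5492 genes. Of 591 genes detected more in batch 1 of WT, 14.4% were so in SCC4 KO cells as well, against 10.4% of the 5492, and 16.8% were detected more in batch 2, against 14.1%. Of 790 genes detected more in batch 2 of WT, 17.5% were so in SCC4 KO cells and 9.49% were detected more in batch 1.

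GKAP1 and RN7SKP255 were the pair past 2-fold the same way in both genotypes by the mean. By the trimmed mean there were 6 such genes, and with ComBat-seq run on the deposited UMIs GKAP1 was at -0.87 in WT. GKAP1 was found in 21 of 73 and 74 of 75 WT cells and in 30 of 77 and 76 of 76 SCC4 KO cells, with log2 ratios of -1.50 and -1.39. RN7SKP255 is a pseudogene copy of 7SK RNA whose reads may be shared with other copies. Its log2 ratios were -1.07 and -1.29. edgeR's quasi-likelihood test of a batch term with genotype as a covariate was run on the 4 sums of UMIs with Benjamini-Hochberg adjustment. It called 70 of 15071 genes (0.464%), 33 higher and 37 lower in batch 1. Of these, 23 were past 2-fold in WT and 2 in both genotypes the same way. The UMIs of GKAP1 were 39 and 275 in WT and 49 and 292 in SCC4 KO cells. Since the WT batches enter the fit, its calls are not independent of the WT ratios. The calls rest on sums that may have been adjusted for batch and on the assumption, which the labels do not give, that a number marks the same batch in both genotypes. Without the genotype term edgeR called 0 genes, with 161 at an unadjusted p under 0.05, and DESeq2 with it called 13.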

How the data were processed

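The authors deposited counts of UMIs per gene and cell for eHAP1 and HEK293T cells, as whole numbers without scaling. Per the study's methods, reads were aligned to GRCh38, counted in exons and collapsed to UMIs, and ComBat-seq removed the batch effect before bursting analysis. Demultiplexing used bcl2fastq 2.20, per the submitters' processing notes. Values were taken as deposited. Gene names came from GENCODE 44 by identifier without version (99.6% matched).

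Members and lists were chosen with earlier results of these data known. Genes named were the 12 genes with a symbol and the largest log2 ratios in each direction, past 2-fold in the mean and in the mean with 5% of cells trimmed at each end, list members past 2-fold (or the 2 most abundant), the 10 genes with the most UMIs, and genes past 2-fold in both genotypes. List members past 2-fold by detection and genes present in 1 batch only were added after their values were seen. The measures were tested on simulated cells. No p-value between the WT batches was computed. Tools were Python 3.11.15 with numpy 2.4.6, pandas 2.3.3 and scipy 1.17.1, and R 4.3.3 with edgeR 4.0.16, DESeq2 1.42.0 and sva 3.50.0. The result of 1 list member is not reported here.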

Additional observations from a re-analysis of the deposited data

Results flagged for a closer look

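There were 5 genes past 2-fold between the batches in WT and in SCC4 KO cells in opposite directions, and the difference between genotypes was not tested, each value resting on 1 library per batch. NLGN4X had a log2 ratio of batch 1 over batch 2 of 1.89 in WT and -1.34 in SCC4 KO cells, and it was found in 72 and 7 WT cells and in 8 and 76 SCC4 KO cells. HOXA5, a homeobox transcription factor, had 1.43 and -1.07, and PVT1 had 1.01 and -1.31. FAM133DP had -1.46 and 1.957, found in 5 and 72 WT cells and in 73 and 2 SCC4 KO cells. ZNF516-DT had -1.16 and 1.05.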

How the results depend on the processing

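No paired analysis was possible because the comparison between the WT batches has 1 library on each side, and no library could be left out. Batch numbers were matched across genotypes in the batch term and wherever WT ratios were set beside SCC4 KO ratios. The labels do not say that a number marks the same batch in both. Against 214 genes past 2-fold (111 higher in batch 1, 103 higher in batch 2), adding 1 in place of 0.5 gave 51 (34 and 17), ComBat-seq run on the deposited UMIs 112 (60 and 52), a mean of at least 1 UMI in both batches 19 (14 and 5), at least 5 UMIs in either batch 6 (1 and 5), no filter 328 (207 higher in batch 1), 1.5-fold 862 (471 and 391) and 3-fold 35 (26 and 9). The 5 list members past 2-fold became 3 with summed UMIs, TMM, median-of-ratios size factors, thinned cells or ComBat-seq, 0 with 1 added or at least 5 UMIs, 8 with no filter and 24 at 1.5-fold. The batch term gave 0 genes without genotype, 4 without TMM and 13 with DESeq2, against 70. In trimmed means 6 genes were past 2-fold alike in both genotypes, against 2. The 24 leading genes were chosen for the largest ratios in these same cells and for passing 2-fold in the trimmed mean. The trimmed mean is also among the settings, so these genes could hardly fail and no robustness is read from them. In all, 236 of 240 of their recomputed ratios stayed past 2-fold and none changed sign. Among them ComBat-seq run on the deposited UMIs took GKAP1 to -0.87 and RAB30 to -0.65, and adding 1 took ALDH1L2 to -0.95 and LINC02019 to -0.96. The ComBat-seq run, the trimmed means over both genotypes and the detection readout were chosen after seeing the data. The causes were not tested. What the batches differed by before any such adjustment is not shown by the size of values of 1 or more UMIs.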
